A study of Mus musculus with 4 samples.

Results

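Interferon-response genes were examined in mouse bone marrow mesenchymal stem cells (MSCs), the adherent stromal cells of marrow, with and without the transcriptional repressor Snail1. The genes were 43 canonical interferon-stimulated genes, listed by name. Each was read from the probe set whose only platform gene symbol was that name, and from the brightest one where a gene had several. This gave 39 measured genes of 22180 genes with a name in the series. Ifi44 had no such probe set, and those of Oas1a, Dtx3l and Gbp2 carried a second gene symbol, so these 4 are named only. Expression was measured on 4 Affymetrix arrays, 1 per group: untreated Snail1-WT cells, Snail1-WT cells given TGF-b1 for 2 h, untreated Snail1-KO cells, and Snail1-KO cells given TGF-b1 for 2 h. Mouse strain and age, the way Snail1 was removed and the number of animals or cultures behind each array are not stated in these sources.

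Interferons are cytokines that cells release on sensing viral nucleic acid. Type I interferon acts through the receptor pair IFNAR1 and IFNAR2 and the kinases JAK1 and TYK2. These activate STAT2, which acts with IRF9 in the complex ISGF3 to switch on genes whose promoters carry an interferon-stimulated response element. The products sense foreign RNA, block viral replication, present antigen and feed back on the pathway, and many of these genes are also transcribed at a basal level without added interferon. Interferon gamma acts through another receptor, and its target genes often carry gamma-activated sites.

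Values are RMA log2 values, on which a difference of 1 is 2-fold and one of 0.58 is 1.5-fold. Each group is 1 array, so differences carry no replicate check and no p-value. As a yardstick of error, the SD of a difference between 2 arrays was estimated for each gene from how far the responses to TGF-b1 in the 2 genotypes disagreed among the 500 genes nearest in level. This noise SD ran from 0.08 to 0.26 over the 39 genes. It contains true differences between the responses and leaves out whatever both arrays of a genotype share, such as a difference between cell populations that has nothing to do with Snail1. In these bulk samples, fewer cells of a type and less RNA per cell cannot be told apart.

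Array medians ran from 4.58 to 4.63. Snai1, the gene of Snail1, measured 6.69 and 7.63 in untreated and treated Snail1-WT cells and 5.09 and 5.34 in Snail1-KO cells, in the direction of the labels. Of 11 stromal cell markers, Pdgfra measured 10.13 to 11.10 and Cxcl12 10.76 to 11.20, but Lepr only 2.86 to 3.20, under the lower quartile of every array. Stromal markers differed between genotypes as well, with medians of -0.26 without and -0.18 with TGF-b1. In Snail1-KO cells, 8 of 11 were lower without and 6 of 11 with TGF-b1. Of all 22180 genes, 10931 and 11649 were. Pdgfra gave -0.37 and -0.50, while the collagen gene Col3a1 was 1.5-fold higher in both pairs, at 0.71 and 0.89. Of 13 measured leukocyte markers, 4 were in the upper 60% of genes by mean level. None was 1.5-fold higher in Snail1-KO cells in both pairs, against 1.68% of all genes, so this count says little. The mean of these 13 log2 values was 4.07 and 4.10 in untreated and treated Snail1-WT cells and 4.16 and 4.14 in Snail1-KO cells. Ptprc, which marks all leukocytes, measured 3.15, 3.42, 3.49 and 3.78 on these arrays in that order, and Siglech, a marker of the plasmacytoid dendritic cells that make type I interferon, 3.96 to 4.00. Their Snail1-KO minus Snail1-WT differences had medians of 0.08 without and -0.02 with TGF-b1. The macrophage and monocyte genes among them were divided, with 0.54 and 0.71 for Lyz2 and 0.42 and 0.59 for Cd14, but -0.12 and -0.55 for Csf1r and -0.24 and -0.19 for Itgam. Adgre1 gave 0.36 and -0.22 and Cd68 0.05 and -0.05. The part of these marker differences in the results given here was not tested.

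The promoters of the 4 genes that rank highest by the smaller of their genotype differences in the untreated and the treated pair are shown. They were searched for the core letters of the interferon-stimulated response element, which are GAAA, any 2 bases, then GAAA. Each line is the sequence of the 250 bases before the annotated transcription start, 5′ to 3′ on the strand of the gene, from the RefSeq promoter table of GRCm38.p6. Capitals mark every match to these core letters on either strand.
Ifit1: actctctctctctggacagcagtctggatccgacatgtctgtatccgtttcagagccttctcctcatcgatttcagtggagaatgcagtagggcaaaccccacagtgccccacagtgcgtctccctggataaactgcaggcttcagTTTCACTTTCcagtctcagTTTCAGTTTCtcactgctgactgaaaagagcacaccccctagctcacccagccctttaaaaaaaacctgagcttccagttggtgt
Apol9b: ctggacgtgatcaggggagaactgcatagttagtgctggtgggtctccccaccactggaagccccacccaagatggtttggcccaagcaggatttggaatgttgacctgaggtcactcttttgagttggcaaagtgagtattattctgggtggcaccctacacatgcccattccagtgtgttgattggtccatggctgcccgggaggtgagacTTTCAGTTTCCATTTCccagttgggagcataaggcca
Tapbp: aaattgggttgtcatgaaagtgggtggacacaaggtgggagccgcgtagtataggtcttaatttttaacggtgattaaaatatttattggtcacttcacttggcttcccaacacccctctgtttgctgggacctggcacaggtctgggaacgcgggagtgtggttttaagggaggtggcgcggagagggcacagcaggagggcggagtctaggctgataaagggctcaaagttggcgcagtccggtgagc
Cmpk2: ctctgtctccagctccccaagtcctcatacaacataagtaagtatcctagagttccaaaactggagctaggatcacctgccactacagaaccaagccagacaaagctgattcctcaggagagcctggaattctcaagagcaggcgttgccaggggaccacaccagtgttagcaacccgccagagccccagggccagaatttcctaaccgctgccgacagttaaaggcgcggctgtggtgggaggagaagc
The Ifit1 window lies at chr19:34640639-34640888 and that of Apol9b at chr15:77728822-77729071. Those of Tapbp and Cmpk2 lie at chr17:33919228-33919477 and chr12:26468965-26469214, and all 4 are on the plus strand. In Ifit1 the matches began 104 and 85 bases before the start, and in Apol9b overlapping matches began 37 and 31 bases before it. The windows of Tapbp and Cmpk2 held no match, which says only that these letters are not in these bases.

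The same search was made over windows of 300 bases, from 250 before to 50 after the start, with each gene counted once. Of 31 measured interferon-response genes in the table, 14 held the core letters (45.2%), against 657 of 16990 measured genes of any kind (3.87%). These were Stat2, Ddx58, Ifih1, Eif2ak2, Ifit1, Ifit3, Rsad2, Bst2, Trim30a, Isg15, Cxcl10, Apol9b, Gbp3 and B2m. Canonical interferon-stimulated genes are in part known by this element, so its share among them is a description. The gamma-activated site letters TTCNNNGAA, which read the same on both strands, were in 7 of the 31 (22.6%), namely Irf1, Eif2ak2, Adar, Ifit2, Bst2, Ifi35 and Psmb8, and in 9.15% of the 16990. Eif2ak2 and Bst2 held both motifs.

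Interferon-response genes were mostly higher in Snail1-KO cells, with and without TGF-b1. Ifit1, whose product binds foreign RNA, was 3.68-fold higher in untreated and 2.80-fold higher in treated Snail1-KO cells, and Apol9b was 3.34-fold and 3.15-fold higher. Of the 39 genes, 17 were at least 1.5-fold higher in both pairs of arrays (43.6%), against 1.68% of all 22180 genes, while 16 of the 34 in the upper 60% of genes were, against 2.6% there. In single pairs, 20 genes were 1.5-fold higher without TGF-b1 (3.48% of all genes) and 19 with it (4.06%). None was 1.5-fold lower in the untreated pair, the treated pair or both, against 2.65%, 2.9% and 1.1% of all genes. Shares this low leave few of 39 genes to be called, so these counts of none say little. Both Snail1-KO values lay above both Snail1-WT values for 30 of the 39 genes, against 21.5% of all genes, and below them for Mx1 and Psmb8, against 22.6%. The difference was above 0 in both pairs for 34 of 39, against 31.1%. The median Snail1-KO minus Snail1-WT difference over the 39 was 0.61 without and 0.57 with TGF-b1, beside 0.0053 and -0.017 over all genes. That interferon-response genes were higher in Snail1-KO cells was known when the genes were listed, so these counts describe the group and are no independent support for its direction.

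**Figure D1:**
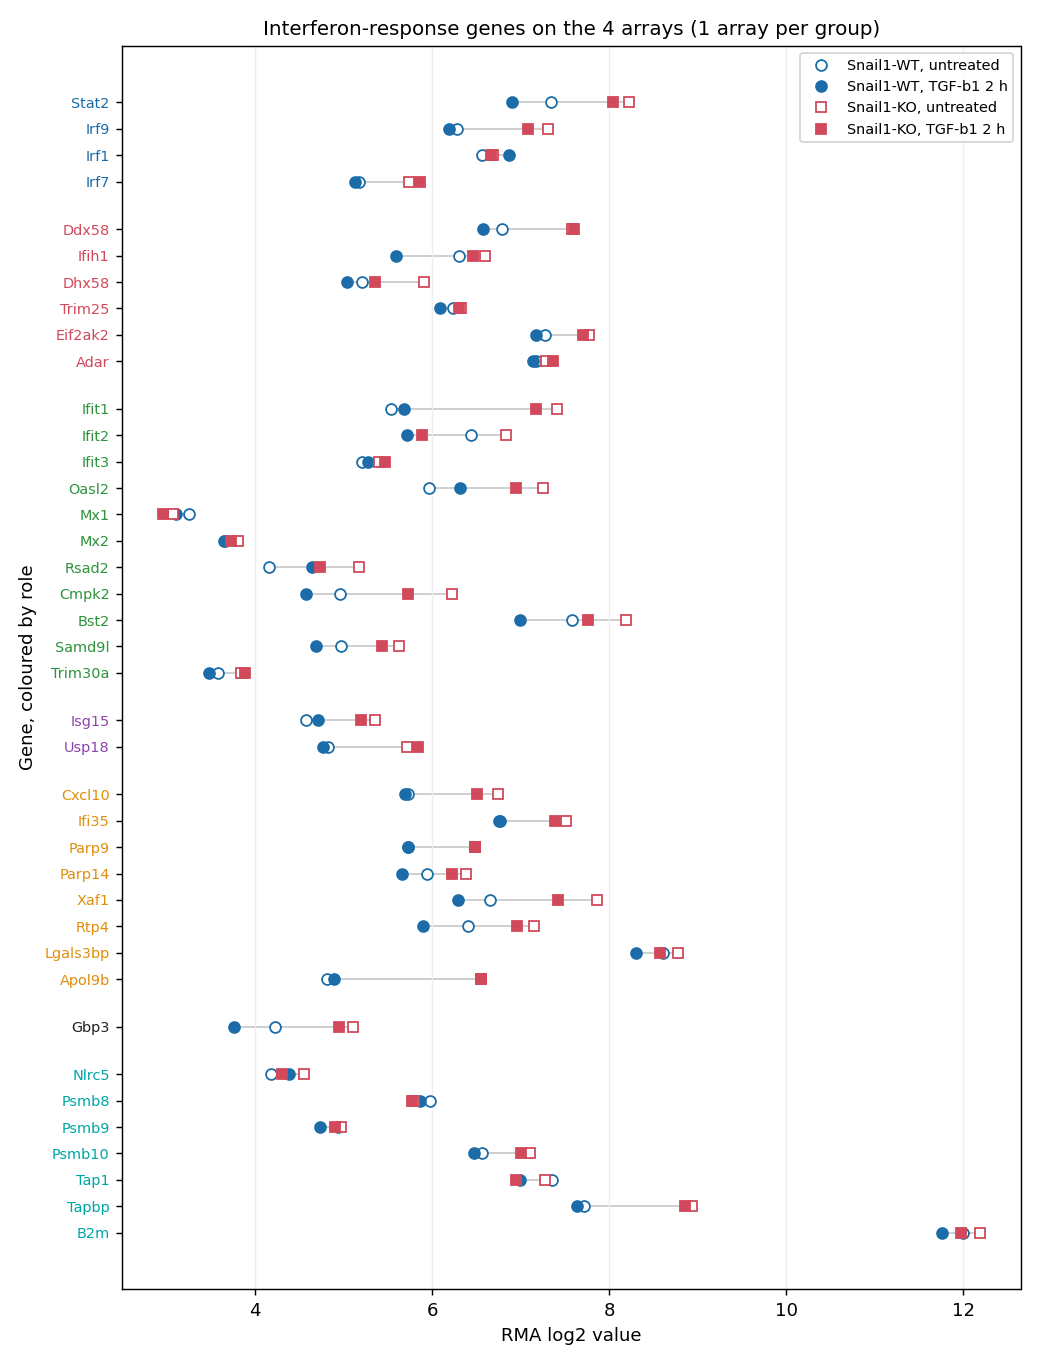
RMA log2 value (x axis) of each of the 39 measured interferon-response genes (y axis, coloured by role) on the 4 arrays, 1 array per group. Circles are Snail1-WT and squares Snail1-KO cells, open untreated and filled with TGF-b1 for 2 h. For 30 genes both squares lie to the right of both circles, and levels of different genes are not comparable because they come from different probes.

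At a 2-fold threshold, 9 of the 39 genes were higher in untreated Snail1-KO cells, against 0.6% of all genes, and 10 in treated ones, against 0.726%. Ifit1, Cmpk2, Xaf1, Apol9b and Tapbp were 2-fold higher in both pairs, 5 of 39 against 0.356% of all genes. For the 17 genes at least 1.5-fold higher in both pairs, each difference was between 3.23 and 11.5 times the noise SD of its gene. With noise SDs of at most 0.26, the 1.5-fold rule sets a floor under these ratios, so they are no support beyond that rule. The untreated difference was the larger one in 10 of the 17 genes and the treated difference in 7, with a median gap of 0.16 between the pairs.

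**Figure D2:**
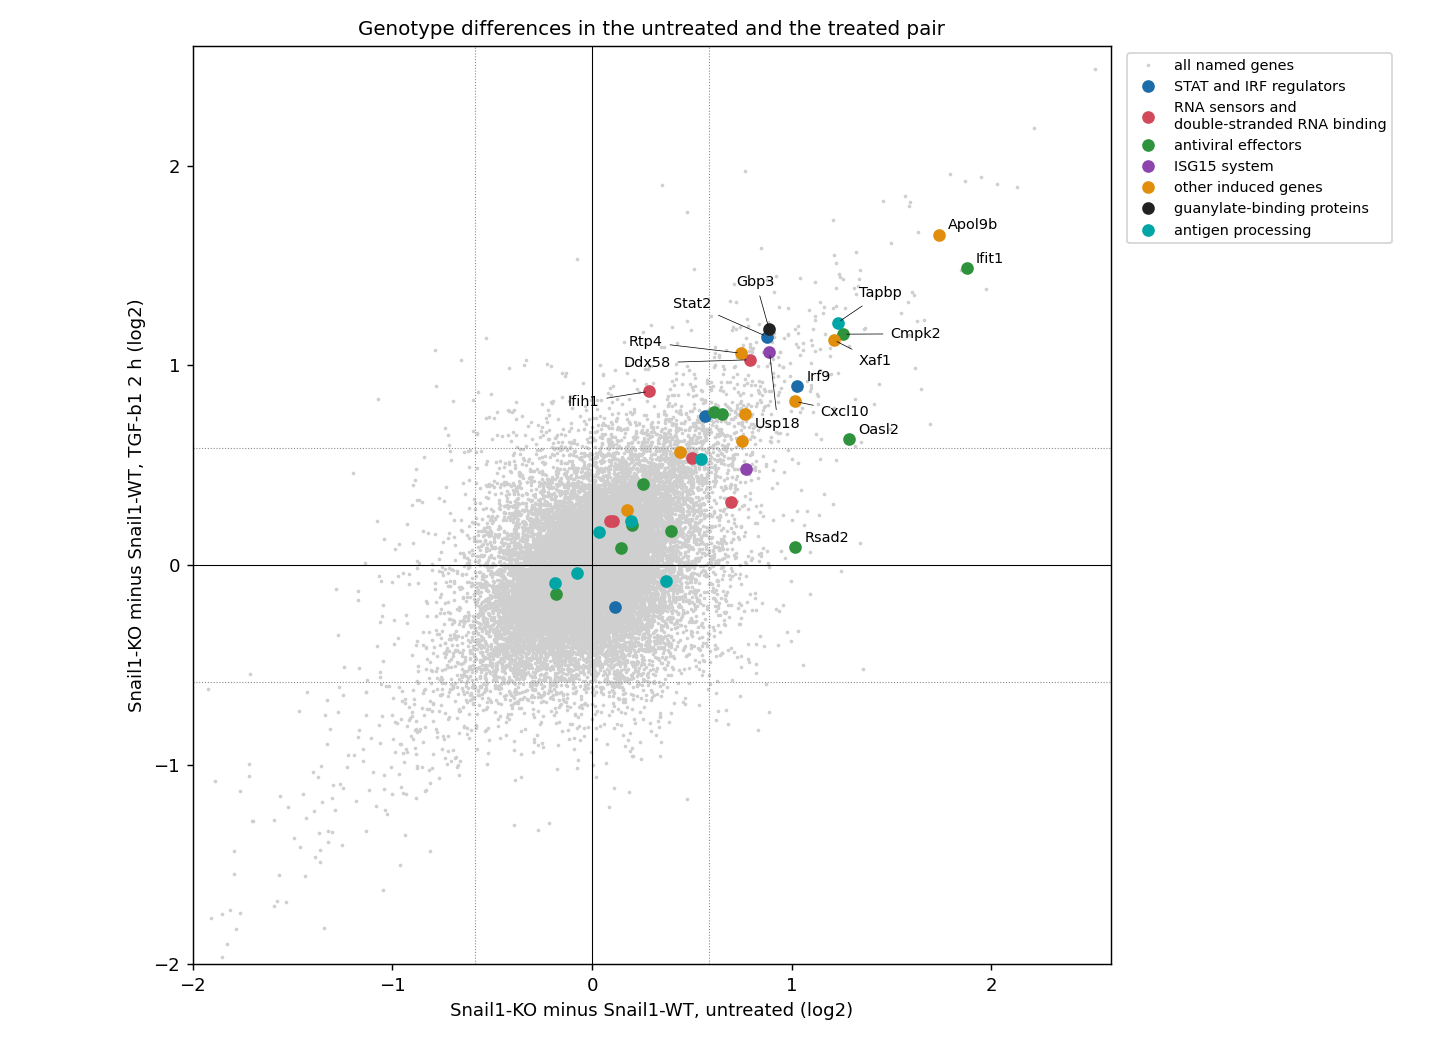
Snail1-KO minus Snail1-WT difference in log2 units for untreated cells (x axis) and for cells with TGF-b1 (y axis), which share no array. Grey points are all named genes, coloured points the 39 interferon-response genes by role, and dotted lines mark 1.5-fold; genes beyond the axis range are not drawn. Of the 39 genes, 17 lie past 1.5-fold in the upper right and none in the lower left, against 1.68% and 1.1% of all genes.

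Among the transcription factors, Stat2 and Irf9, which act together in ISGF3, were higher in Snail1-KO cells and Irf1 was not. Stat2, the type I interferon signal transducer, measured 7.35 and 6.90 in untreated and treated Snail1-WT cells and 8.22 and 8.04 in Snail1-KO cells. Its Snail1-KO minus Snail1-WT difference was 0.88 without and 1.14 with TGF-b1, at a noise SD of 0.11. Irf9, the DNA-binding subunit, measured 6.29 and 6.19 in Snail1-WT and 7.31 and 7.08 in Snail1-KO cells, which made it 2.04-fold and 1.86-fold higher. Both Snail1-KO values of either gene lay above both Snail1-WT values.

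Irf7, the factor that amplifies interferon alpha production, measured 5.18 and 5.12 in Snail1-WT and 5.74 and 5.87 in Snail1-KO cells. It differed by 0.56 and 0.74, so the untreated pair fell just short of 1.5-fold. Irf1, a factor best known from the interferon gamma response, measured 6.57 and 6.87 in Snail1-WT and 6.68 and 6.66 in Snail1-KO cells. Its difference was 0.12 without and -0.21 with TGF-b1 at a noise SD of 0.17, and the values of the genotypes overlapped.

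The cytosolic RNA sensors differed among themselves. Ddx58, which encodes the sensor RIG-I for short double-stranded RNA with triphosphate ends, measured 6.79 and 6.58 in untreated and treated Snail1-WT cells and 7.58 and 7.61 in Snail1-KO cells. It was thus 1.73-fold higher without and 2.04-fold higher with TGF-b1. Ifih1, which encodes MDA5, the sensor of long double-stranded RNA, measured 6.31 and 5.59 in Snail1-WT and 6.59 and 6.46 in Snail1-KO cells. Its difference was 0.29 in the untreated and 0.87 in the treated pair, and the treated Snail1-WT value was the low one of the 4. Dhx58, the gene of their partner LGP2, had the opposite order, with Snail1-WT values of 5.21 and 5.04, Snail1-KO values of 5.91 and 5.35, and differences of 0.70 and 0.32.

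The RNA-activated kinase gene Eif2ak2, whose product PKR halts translation, measured 7.27 and 7.17 in Snail1-WT and 7.77 and 7.71 in Snail1-KO cells. The differences of 0.50 and 0.54 were alike in both pairs and just under 1.5-fold, at a noise SD of 0.13. Trim25, a ubiquitin ligase of the RIG-I pathway, differed by 0.09 and 0.22, and Adar, which edits double-stranded RNA, by 0.11 and 0.22. Those of Trim25 lay within 1.5 times a noise SD of 0.19. Of these 6 genes, Ddx58 alone was 1.5-fold higher in both pairs, and in all 6 both Snail1-KO values were above both Snail1-WT values.

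Antiviral effectors ranged from the widest difference of the untreated pair, in Ifit1, to differences below the noise SD. Ifit1 measured 5.54 and 5.68 in untreated and treated Snail1-WT cells and 7.42 and 7.17 in Snail1-KO cells, a difference of 1.88 and 1.49. Its relatives Ifit2 and Ifit3, which lie in the same gene cluster, differed by 0.39 and 0.17 and by 0.20 and 0.20. Ifit2 measured 6.44 and 5.71 in Snail1-WT and 6.83 and 5.88 in Snail1-KO cells, so that its values followed TGF-b1 more than genotype. Ifit3 measured 5.20 and 5.27 in Snail1-WT and 5.40 and 5.47 in Snail1-KO cells, at a noise SD of 0.23.

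Oasl2, of the oligoadenylate synthetase family, measured 5.96 and 6.32 in Snail1-WT and 7.25 and 6.95 in Snail1-KO cells, with differences of 1.29 and 0.63. Cmpk2, a mitochondrial nucleotide kinase gene, measured 4.96 and 4.57 in Snail1-WT and 6.22 and 5.73 in Snail1-KO cells and was 2.39-fold and 2.23-fold higher. Next to Cmpk2 on chromosome 12 lies Rsad2, whose product viperin makes a chain-terminating nucleotide. Rsad2 measured 4.15 and 4.65 in Snail1-WT and 5.17 and 4.74 in Snail1-KO cells, a difference of 1.02 without but 0.09 with TGF-b1. The neighbours thus had like differences in the untreated pair and unlike ones in the treated pair. In untreated Snail1-WT cells Rsad2 was below 4.51, the lowest mean of the upper 60% of genes, so the size of its difference is uncertain.

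Bst2, the gene of tetherin, which holds budding virions at the cell surface, measured 7.58 and 7.00 in Snail1-WT and 8.19 and 7.76 in Snail1-KO cells. Its differences were 0.61 and 0.77. Samd9l, a gene of an antiviral translation inhibitor, measured 4.98 and 4.68 in Snail1-WT and 5.63 and 5.44 in Snail1-KO cells, and differed by 0.65 and 0.75. Both genes were therefore higher by a like amount whether or not TGF-b1 was given.

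The Mx genes and Trim30a were the dim members of this group, and all 3 fell outside the upper 60% of genes. Mx1, whose product blocks influenza virus, measured 2.96 to 3.26 over the 4 arrays, under the lower quartile of each, and Mx2 3.64 to 3.81. Their differences, -0.18 and -0.14 for Mx1 and 0.14 and 0.08 for Mx2, were smaller than noise SDs of 0.26 and 0.24. Trim30a measured 3.48 to 3.88 and differed by 0.26 and 0.41. Of the 11 measured effectors, Ifit1, Oasl2, Cmpk2, Bst2 and Samd9l were 1.5-fold higher in both pairs.

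Both genes of the ISG15 system were higher in Snail1-KO cells. Isg15, the ubiquitin-like modifier, measured 4.58 and 4.71 in untreated and treated Snail1-WT cells and 5.35 and 5.20 in Snail1-KO cells, with differences of 0.77 and 0.48. Usp18, which removes ISG15 from proteins and also restrains the receptor IFNAR2, measured 4.82 and 4.77 in Snail1-WT and 5.71 and 5.84 in Snail1-KO cells. It was 1.85-fold higher without and 2.09-fold higher with TGF-b1. At noise SDs of 0.23 for Isg15 and 0.25 for Usp18, the treated difference of Isg15 was close to 2 noise SDs.

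Xaf1, a gene linked to cell death, and the chemokine gene Cxcl10 were among the other induced genes. Xaf1 measured 6.65 and 6.29 in Snail1-WT and 7.86 and 7.42 in Snail1-KO cells, and was 2.31-fold and 2.18-fold higher. Cxcl10, which attracts activated T cells, measured 5.73 and 5.69 in Snail1-WT and 6.75 and 6.51 in Snail1-KO cells, with differences of 1.02 and 0.82. In each gene the genotypes did not overlap.

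Apol9b, an apolipoprotein L gene, measured 4.82 and 4.89 in Snail1-WT and 6.56 and 6.55 in Snail1-KO cells, so TGF-b1 left hardly any trace in either genotype. Its close relative Apol9a was 1.03 higher without and 0.51 higher with TGF-b1. The part of shared sequence between the probes of Apol9a and Apol9b was not tested.

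Parp9, of the ADP-ribosyltransferase family, measured 5.72 and 5.72 in Snail1-WT and 6.49 and 6.48 in Snail1-KO cells, a difference of 0.76 in both pairs. Its neighbour and relative Parp14 measured 5.94 and 5.66 in Snail1-WT and 6.39 and 6.22 in Snail1-KO cells, with smaller differences of 0.44 and 0.57. Rtp4, a receptor chaperone gene, measured 6.40 and 5.90 in Snail1-WT and 7.15 and 6.96 in Snail1-KO cells, and differed by 0.75 and 1.06. These 3 genes were higher in Snail1-KO cells in both pairs, and Parp14 alone of them stayed under 1.5-fold.

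Ifi35 measured 6.76 and 6.77 in Snail1-WT and 7.51 and 7.39 in Snail1-KO cells, a difference of 0.75 and 0.62. A second, dimmer probe set of Ifi35 gave -0.05 and 0.41, so the mean of both was 0.35 in the untreated pair. Lgals3bp, a secreted glycoprotein gene, differed by only 0.17 and 0.28, a second probe set gave -0.01 and 0.26, and the mean of both was 0.08 in the untreated pair. The values of its brighter probe set, 8.61 and 8.30 in Snail1-WT and 8.78 and 8.58 in Snail1-KO cells, overlapped between genotypes. Of these 8 genes, Cxcl10, Ifi35, Parp9, Xaf1, Rtp4 and Apol9b were 1.5-fold higher in both pairs.

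Gbp3 was the only guanylate-binding protein gene of the list with a probe set of its own. These GTPases attack the membranes around intracellular pathogens. Gbp3 measured 4.22 and 3.76 in Snail1-WT and 5.11 and 4.94 in Snail1-KO cells, with differences of 0.89 and 1.18. Both Snail1-WT values were below 4.51, so the sizes are uncertain.

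Antigen processing genes were divided, with Tapbp well above the rest. Tapbp, which encodes tapasin and links class I molecules to the peptide transporter, measured 7.71 and 7.64 in untreated and treated Snail1-WT cells and 8.94 and 8.86 in Snail1-KO cells. It was 2.35-fold higher without and 2.32-fold higher with TGF-b1. A second, dimmer probe set of Tapbp gave 0.49 and 0.33, and the mean of both gave 0.86 and 0.77, which is past 1.5-fold but not 2-fold.

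Psmb10, Psmb8 and Psmb9 encode the catalytic subunits of the immunoproteasome. Psmb10 measured 6.56 and 6.48 in Snail1-WT and 7.11 and 7.01 in Snail1-KO cells, and differed by 0.55 and 0.53. Psmb8 differed by -0.19 and -0.09 and Psmb9 by 0.04 and 0.17, at noise SDs of 0.19 and 0.23. Of the 3 subunits, only Psmb10 thus had both Snail1-KO values above both Snail1-WT values. Their constitutive counterparts Psmb5, Psmb6 and Psmb7 differed by -0.04 to 0.16 without and -0.13 to 0.09 with TGF-b1.

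Tap1, a subunit of the peptide transporter, measured 7.35 and 6.99 in Snail1-WT and 7.28 and 6.95 in Snail1-KO cells, a difference of -0.08 and -0.04. B2m, the invariant class I chain, measured 11.99 and 11.76 in Snail1-WT and 12.19 and 11.98 in Snail1-KO cells, and differed by 0.19 and 0.22. Nlrc5, the transactivator of class I genes, measured 4.18 to 4.55 and differed by 0.37 and -0.08. The median difference of the 7 antigen processing genes was 0.19 without and 0.17 with TGF-b1, beside 0.61 and 0.41 for the 11 antiviral effectors and 0.76 and 0.79 for the 8 other induced genes. Psmb9, Tap1 and Psmb8 are next to each other on chromosome 17, where Tapbp also lies.

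**Figure D3:**
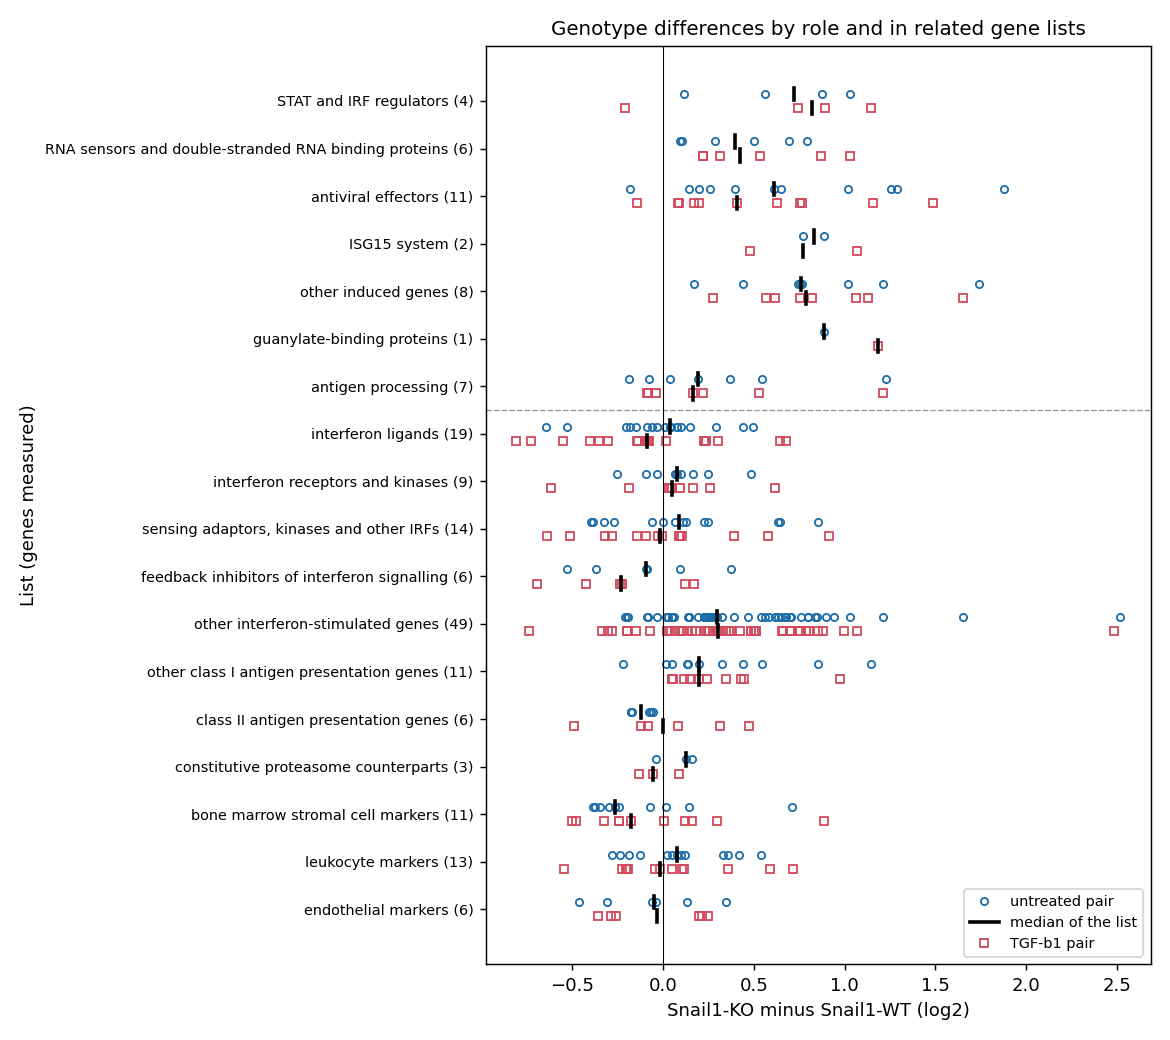
Snail1-KO minus Snail1-WT difference in log2 units (x axis) of each gene in the 7 roles of interferon-response genes (above the dashed line) and in related pathway and marker lists (below it), with the number measured. Circles are the untreated and squares the TGF-b1 pair, and bars are list medians. The medians of receptors and ligands lie near 0, while those of the other interferon-stimulated genes are 0.30 in both pairs.

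The rest of the pathway was read from 8 lists with 117 measured genes of 129. Of these 117, 11 were at least 1.5-fold higher in Snail1-KO cells in both pairs, against 1.68% of all genes. None was 1.5-fold lower in both, which says little against a share of 1.1%. Of the 11, 9 were in the list of other interferon-stimulated genes, and the others were Tlr3 and H2-T23. Among receptors and kinases, the type I receptor genes Ifnar1 and Ifnar2 differed by -0.03 and 0.03 and by 0.25 and 0.26. The interferon gamma receptor genes Ifngr1 and Ifngr2 differed by 0.07 and 0.04 and by 0.10 and 0.09. Jak1 differed by -0.25 and -0.19, Jak2 by 0.08 and 0.16, and Il10rb, a subunit of the lambda receptor, by 0.16 and 0.05.

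The kinase gene Tyk2 had the largest difference of this list in the untreated pair. It measured 5.68 and 5.59 in Snail1-WT and 6.16 and 6.20 in Snail1-KO cells, a difference of 0.48 and 0.62 at a noise SD of 0.18. The lambda receptor gene Ifnlr1 was dim, at 3.75 to 4.37, and differed by -0.10 and -0.62 at a noise SD of 0.25. Of the 9 measured receptor and kinase genes, none was 1.5-fold apart in the same direction in both pairs. Over all genes, 1.68% were higher and 1.1% lower in both pairs, so a count of none among 9 says little.

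Interferon ligand genes showed no common direction. Of 19 measured, 7 were in the upper 60% of genes, and the medians were 0.04 and -0.09. None was 1.5-fold higher or lower in both pairs, against 1.68% and 1.1% of all genes, so this count says little. Ifnb1, the interferon beta gene, differed by -0.15 and -0.35 and lay below the lower quartile of each array, at no more than 3.46. Interferon protein, and transcripts too few for these probes, were not measured.

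The 14 sensing adaptors, kinases and other IRFs had median differences of 0.09 without and -0.02 with TGF-b1. In Snail1-KO cells, 6 of the 14 were lower without and 8 with TGF-b1, against 10931 and 11649 of all 22180 genes. Of the 14, 1 was 1.5-fold higher in both pairs, against 1.68% of all genes. This was Tlr3, the endosomal receptor of double-stranded RNA, at 5.07 and 4.52 in Snail1-WT and 5.93 and 5.44 in Snail1-KO cells, with differences of 0.85 and 0.92. None of the 6 feedback inhibitors was 1.5-fold higher or lower in both pairs, and their medians were -0.09 and -0.23. None of the 6 class II antigen presentation genes was so either, with medians of -0.12 and -0.0014. Over all genes the shares were 1.68% higher and 1.1% lower, so these counts of none say little.

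Of 49 other interferon-stimulated genes, 9 were 1.5-fold higher in both pairs and none lower, against 1.68% and 1.1% of all genes. At a share of 1.1%, the count of none lower says little. The chemokine gene Ccl5 led the 9 at 2.52 and 2.49. The immunity-related GTPase gene Irgm2 was higher by 0.85 and 0.85, the guanylate-binding protein genes Gbp7 by 1.21 and 0.79 and Gbp4 by 0.90 and 0.76, and Tor3a by 0.80 and 0.76. Ifi205 and Mndal, of a family of interferon-inducible nuclear proteins, were higher by 1.65 and 0.88 and by 0.80 and 1.07. Gbp4, at 2.66 and 2.86 in Snail1-WT cells, and Ifi205, at 3.52 and 3.49, were below 4.51 there, so the sizes are uncertain. Of 11 other class I genes, 1 was 1.5-fold higher in both pairs, against 1.68% of all genes. This was the nonclassical gene H2-T23, at 1.14 and 0.98.

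Whether TGF-b1 moved these genes within 2 h was asked separately in each genotype. Its differences were small and mostly downward. The median TGF-b1 minus untreated difference over the 39 genes was -0.10 for Snail1-WT and -0.16 for Snail1-KO, beside -0.0066 and -0.021 over all genes. Both medians of the 39 were smaller in size than their median noise SD of 0.18. All 39 differences in a genotype come from the same 2 arrays, so they are not independent of each other. Of the 39, 25 were lower after TGF-b1 in both genotypes (64.1%), against 32.7% of all genes. None was 1.5-fold higher in Snail1-WT or Snail1-KO cells, against 2.3% and 2.97% of all genes. Such shares leave few of 39 genes to be called, so these counts of none say little.

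Ifit2 was the 1 gene at least 1.5-fold lower after TGF-b1 in both genotypes, against 0.487% of all genes, with differences of -0.73 for Snail1-WT and -0.95 for Snail1-KO. That is 0.605 and 0.518 times the untreated level. In Snail1-WT cells Ifih1 and Bst2 were also at least 1.5-fold lower, with differences of -0.72 and -0.59. That made 3 of 39, against 1.86% of all genes. In Snail1-KO cells Ifit2 was the 1 gene of 39, against 2.26%, which is near the share of genes at large. Bst2 was close behind in Snail1-KO cells, at -0.43. Both treated values lay below both untreated values for Ifit2, Lgals3bp, Psmb9, Tap1 and B2m, 5 of 39 genes against 17.7% of all genes. This order can arise only where the TGF-b1 difference exceeds the genotype difference. Most of the 39 genes differed widely between genotypes, so the low share says little about TGF-b1.

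**Figure D4:**
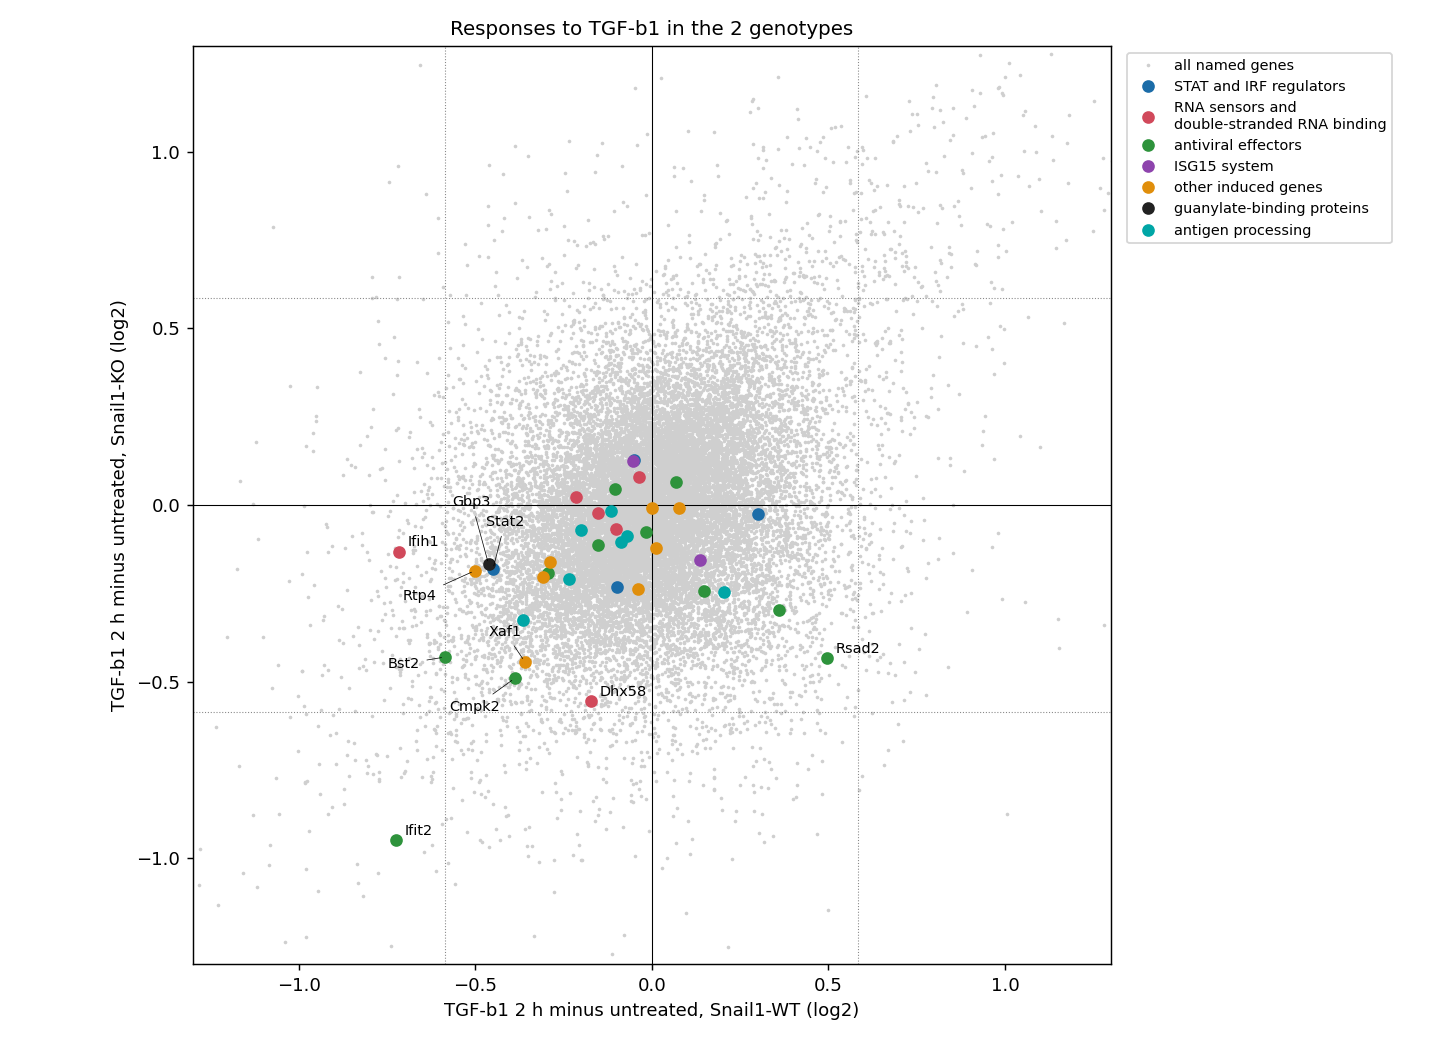
TGF-b1 minus untreated difference in log2 units in Snail1-WT (x axis) and Snail1-KO cells (y axis), which share no array. Grey points are all named genes, coloured points the 39 interferon-response genes by role, and dotted lines mark 1.5-fold; genes beyond the axis range are not drawn. Ifit2 is the only coloured gene past 1.5-fold lower in both genotypes.

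Several genes of the 17 higher in Snail1-KO cells were lower after TGF-b1. Cmpk2 differed by -0.39 and -0.49 in Snail1-WT and Snail1-KO cells, Xaf1 by -0.36 and -0.44, Rtp4 by -0.50 and -0.19 and Stat2 by -0.45 and -0.18. In all, 11 of the 17 were lower after TGF-b1 in both genotypes, among them Parp9 with hardly any difference. So were 25 of all 39 genes (64.1%), against 32.7% of all genes, so this count is not particular to the 17. Oasl2, which is among the 17, and Rsad2, which is not, had 0.36 and 0.50 in Snail1-WT cells but -0.30 and -0.43 where Snail1 was removed. Of the 17, Ifit1, Ifi35, Apol9b, Ddx58 and Usp18 also had responses of opposite sign. The median difference of the responses, Snail1-KO minus Snail1-WT, was 0.02 over the 39 genes.

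In the related lists, the GTPase gene Irgm1 stood out after TGF-b1. It measured 6.13 and 7.27 in untreated and treated Snail1-WT cells and 6.52 and 7.50 in Snail1-KO cells, so it was higher by 1.14 and 0.98 after TGF-b1. Its relative Irgm2 was lower by 0.29 in both genotypes. Tlr4, the lipopolysaccharide receptor gene, went the other way, with 6.89 and 6.19 in Snail1-WT and 7.53 and 6.77 in Snail1-KO cells, or -0.70 and -0.76 after TGF-b1.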

How the data were processed

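Per the labels' protocols, the WT PLUS kit was used to label the RNA, and each of the 4 samples went on 1 array. The authors deposited log2 values, and the submitters' processing notes name RMA and R 3.1.1. RMA gives every array one distribution and so hides a change common to most genes. Genome build: not given in the sources used here. The number of arrays limits the precision.

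Sample titles gave the groups. The platform table named 23521 of 41345 probe sets with 1 gene symbol and 1814 with several, and left 16010 unnamed, and all 39 measured members matched a RefSeq gene table of GRCm38.p6 by Entrez identifier. Differences between arrays, counts past 1.5-fold and 2-fold, medians and the noise SD were computed in Python 3.11.15 with numpy 2.4.6 and pandas 2.3.3, and figures with matplotlib 3.10.9. The steps were tested on simulated data. Alternatives were averaging a gene's probe sets, the upper 60% or 40% of genes by mean level, centring each array on its median, and cyclic loess with limma 3.58.1 in R 4.3.3.

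The members and lists were chosen with earlier results of these data known. All members are described. From the related lists, all receptors and kinases are named, and of each other list up to 8 genes at least 1.5-fold apart in the same direction in both genotype pairs, or after TGF-b1 in both genotypes. Marker genes and Ifnb1, Apol9a and the constitutive proteasome genes were chosen after seeing their values.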

Additional observations from a re-analysis of the deposited data

Results flagged for a closer look

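In 13 of the 39 interferon-response genes TGF-b1 went with a higher value in one genotype and a lower one in the other. With 1 array per group the differences of these responses were not tested, and opposite signs are easily reached where both responses are near 0. Over all 22180 genes, the response was below 0 for 11348 with Snail1 and for 11865 without it, but for 7247 in both. Opposite signs were thus common among genes at large, so the count of 13 is not particular to the 39 genes. For 2 of the 13 both responses exceeded the noise SD. Rsad2 had a response of 0.50 with Snail1 and -0.43 without it, a difference of -0.93 at a noise SD of 0.22. Oasl2 had 0.36 and -0.30, a difference of -0.66 at a noise SD of 0.15.

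The other 6 genes that were higher after TGF-b1 in Snail1-WT and lower in Snail1-KO cells had smaller differences of the responses. These were -0.45 for Nlrc5, -0.39 for Ifit1, -0.32 for Irf1, -0.29 for Isg15, -0.13 for Ifi35 and -0.084 for Apol9b. The 5 genes of the reverse pattern differed by 0.24 (Ddx58), 0.18 (Irf7), 0.18 (Usp18), 0.15 (Trim30a) and 0.11 (Adar).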

How the results depend on the processing

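No paired analysis was possible because each group has 1 array and the labels carry no replicate numbers. Over 5 alternatives, 49 of 50 comparisons of a count or median with its value as reported kept their direction and moved by no more than 1.5 times (counts) or by less than the median noise SD of the genes (medians). The count of genes 2-fold higher in treated Snail1-KO cells moved further, to 6 of 24 in the upper 40% of genes from 10 of 39, where fewer genes enter. The untreated count moved by exactly 1.5 times there, to 6 of 24 from 9 of 39. In the upper 60% of genes, 16 of 34 were 1.5-fold higher in both pairs, against 2.6% of the 13308 genes there. The count of genes 1.5-fold higher in both pairs ran from 12 of 24, in the upper 40% of genes, to 17 of 39 over the alternatives. Single genes moved by more than their noise SD only with the mean of all probe sets, in 7 values of Ifi35, Lgals3bp and Tapbp. These are the only 3 of the 39 genes with more than 1 probe set, so only they could move there. The level cutoffs cannot change the values of single genes, and centring arrays with nearly equal medians can hardly do so.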
